A study of Mus musculus with 11 samples.

Results

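Pool 1 and pool 4 are 2 mixtures of siRNAs against Akt1 that share siRNAs 7 and 8 and differ in the remaining siRNA, which was siRNA 6 in pool 1 and siRNA 9 in pool 4. The comparison took the 2 libraries titled for pool 1 and the 2 titled for pool 4, so it rests on 4 of the 11 RNA-seq libraries of the study. All were primary granulosa cells of RjOrl:SWISS mice, the somatic cells that surround the oocyte in the ovarian follicle and make steroid hormones. Cells received 30 pmol of siRNA with a lipid reagent (Lipofectamine RNAiMax), medium replaced the mix after 5 h, and RNA was extracted 30 h after transfection. The other 7 libraries, which were left out of the main comparison and serve for levels, distances and alternative fits, were 3 from cells given a nontargeting scrambled siRNA (scramble), 2 from pool 2 (siRNAs 6, 8 and 9) and 2 from pool 3 (siRNAs 6, 7 and 9). The protocol and the sample titles name the pools differently, and they were matched by number. The labels give neither the age of the mice nor whether the replicates of a pool came from different cultures, so a p-value here reflects the spread of these libraries, which may be technical. Because the pools differ by an exchange of siRNA 6 for siRNA 9, the presence of one and the absence of the other cannot be told apart within the 4 libraries.

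The kinase AKT1, activated through PI3K, phosphorylates serine and threonine residues of its targets and carries signals from insulin, IGF1 and FSH in granulosa cells. Immediate early genes are switched on within minutes of a stimulus without new protein synthesis, by factors such as SRF, the ternary complex factors and CREB, and their mRNAs are short-lived. Several of them, such as Fos, Egr1 and Jun, encode transcription factors that pass the signal on to later genes, and granulosa cells induce them in response to gonadotropins and growth factors.

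Depth was 25568277 to 31140684 reads in genes in the 4 libraries, and 16664 to 16844 genes had a read. Levels are given as CPM, counts scaled to 1e+06 reads in genes per library, which are not corrected for gene length and are therefore compared between libraries and not between genes. The granulosa cell genes Foxl2, Inha and Amhr2 were present in each of the 4 libraries, at 135.3 to 152.8, 1662 to 1824 and 92.5 to 101.5 CPM. Fshr, the FSH receptor, was at 0.101 to 0.367 CPM and Cyp19a1, the aromatase, at 2.05 to 2.57 CPM. Nr0b1, also on the granulosa list, and the blood gene Hbb-bs had no read in any of the 4 libraries, where 0 counts allow a level of up to 0.0963 to 0.117 CPM (3 counts, counting error only). The leukocyte gene Ptprc reached at most 0.0391 CPM. Stroma genes were present, with Col1a1 at 1446 to 1517 CPM, and so was Upk3b, a surface epithelium gene, at 46.5 to 47.7 CPM. In bulk RNA, fewer cells of a type and less RNA per cell cannot be told apart.

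Akt1, the targeted gene, was at 63.9 and 58.6 CPM in pool 1 replicates 1 and 2 and at 55.1 and 62.4 CPM in pool 4. The libraries of the pools overlapped, and all lay far below the 399.2 to 528.9 CPM of the scramble libraries. Akt1 differed by a log2 of 0.05 ± 0.06 (SE, 2 against 2 libraries; 95% interval −0.07 to 0.18), which is a description, since the pools were chosen for similar Akt1 levels. Its sign turned without pool 1 replicate 1 or pool 4 replicate 1. Akt2, a paralog of Akt1, differed by a log2 of 0.04 ± 0.04 (SE, adjusted p = 0.929, edgeR quasi-likelihood test with Benjamini-Hochberg adjustment).

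Between pools with overlapping Akt1 levels a small set of genes differed, and the 4 of them that code for protein were all on the lists of immediate early genes. Those lists were written with earlier results of these data known, so the membership is not independent of them. Egr1 and Fos were the clearest, both lower in pool 1. Ier2 and Cyr61 were lower in pool 1 by less, and the noncoding RNAs Malat1 and Rn45s were lower too. In all, 6 of 13786 genes tested (0.0435%) passed an adjusted p of 0.05 in edgeR's quasi-likelihood test, with no minimum fold. All 6 were lower in pool 1. No gene was called higher in pool 1 by edgeR, DESeq2 or limma-voom on these genes. At an unadjusted p below 0.05 edgeR gave 401 genes higher (2.91%) and 425 lower (3.08%) in pool 1. Without the low-count filter edgeR called 5 genes higher and 11 lower. With all 11 libraries in 1 fit, which takes in the spread of the scramble libraries, 0 genes were called, and without scramble replicate 1 that fit called 3, Egr1, Fos and Ier2.

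**Figure D1:**
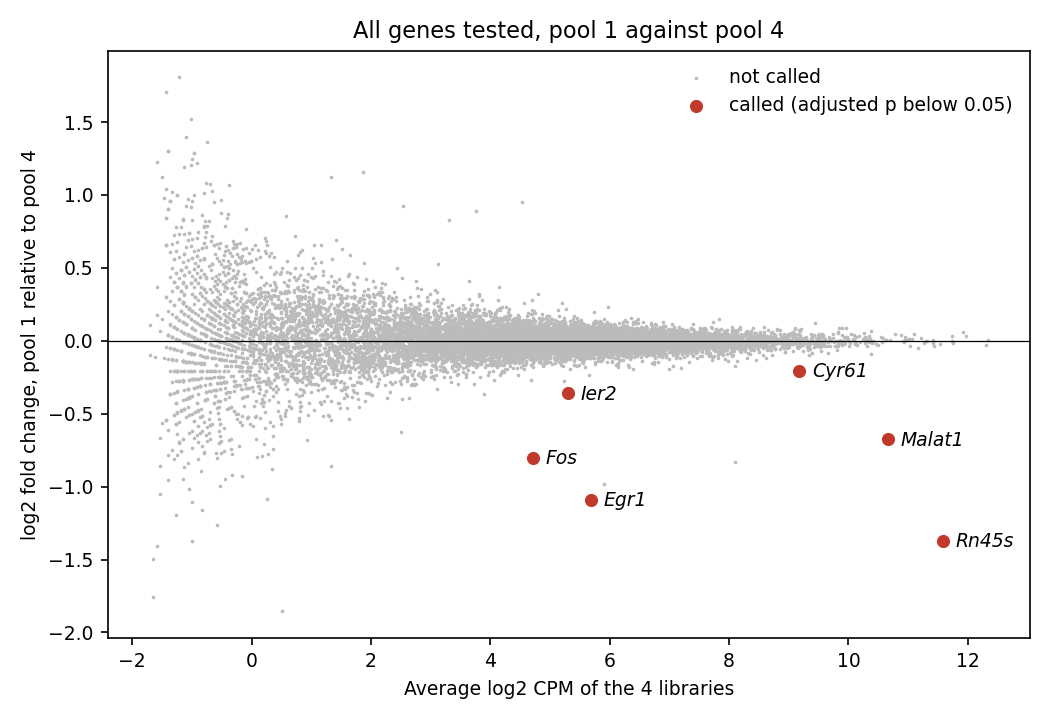
The log2 fold change of pool 1 relative to pool 4 (y axis) is plotted against the average log2 CPM of the 4 libraries (x axis), with 1 point for each of the 13786 genes tested. The 6 called genes (red) all lie below 0, from −0.21 for Cyr61 to −1.37 for Rn45s.

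The rest of the transcriptome was close between the pools. The median log2 fold change was 0.00108 and the median size of a change was 0.0477. For 11327 genes (82.2%) the 95% interval of the difference lay within ±0.5 on the log2 scale, and for 12950 (93.9%) within ±1. Of the 11053 genes whose log2 CPM averaged 2 or more, the fold change exceeded 1 on the log2 scale in 2 genes and 0.5 in 12. Over these genes the SD of log2 differences was 0.0984 between the pool 1 libraries, 0.119 between the pool 4 libraries and 0.105 to 0.118 between libraries of different pools. The same measure from these 4 libraries was 0.182 to 0.213 to the pool 3 libraries, 0.251 to 0.284 to pool 2 and 0.263 to 0.875 to scramble. By this SD, libraries of pools 1 and 4 lay within the range of the replicates and closer to each other than to the other groups. By the chi-square of the counts per degree of freedom, which weights abundant genes, replicates were at 3.42 and 3.46. Pairs of different pools were at 2.81, 5.3, 5.8 and 9.49, so by this measure 3 of the 4 pairs were farther apart than replicates. A large part of the highest value comes from Rn45s alone, which had 35800 to 141097 reads in the 4 libraries. The measure was not taken without Rn45s.

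Egr1 encodes a zinc finger transcription factor induced by growth factors and gonadotropins. It was at 35.6 and 31.3 CPM in pool 1 replicates 1 and 2 (1108 and 926 reads) and at 69.6 and 72.1 CPM in pool 4 (1779 and 1966 reads). The pools did not overlap, and replicates lay much closer to each other than to the other pool. Egr1 was 2.13-fold higher in pool 4, a log2 fold change of −1.09 ± 0.06 in pool 1 (SE, 95% interval −1.21 to −0.97, adjusted p = 1.41e-07 in edgeR). Egr1 lies on the plus strand of chromosome 18, from 34859823 to 34864984 (build mm10), and no other annotated gene overlaps it.

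Fos encodes a subunit of the AP-1 transcription factor. Its level was 20.2 and 18.6 CPM in pool 1 (629 and 551 reads) and 31.9 and 35.4 CPM in pool 4 (815 and 966 reads). Again both pool 1 libraries lay below both pool 4 libraries. Fos was 1.74-fold higher in pool 4, a log2 fold change of −0.80 ± 0.07 in pool 1 (SE, 95% interval −0.95 to −0.66, adjusted p = 6.38e-05 in edgeR). The gene lies on the plus strand of chromosome 12, from 85473890 to 85477273 (mm10).

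Ier2, a small nuclear protein of the immediate early response, was at 35.8 and 33.9 CPM in pool 1 and at 43.3 and 45.8 CPM in pool 4. Its pools did not overlap, and the log2 fold change was −0.36 ± 0.05 (SE, adjusted p = 0.0137 in edgeR), a 1.28-fold difference. Cyr61, also named Ccn1, encodes a secreted matrix protein and is a classical target of the co-activator YAP as well as an immediate early gene. It was at 540.1 and 538.1 CPM in pool 1 and at 628.7 and 611.2 CPM in pool 4. The pool 1 replicates were nearly equal and lay below both pool 4 libraries. The log2 fold change was −0.21 ± 0.03 (SE, adjusted p = 0.0137 in edgeR), a 1.16-fold difference, and it was not called when scramble replicates 2 and 3 and the other pools entered the fit (adjusted p = 0.895 in edgeR). Ier2 lies on chromosome 8, from 84661331 to 84662852, and Cyr61 on chromosome 3, from 145646976 to 145649981, both on the minus strand (mm10).

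The promoters of Fos and Cyr61, which were called together, are shown to let the reader compare their proximal elements (250 bases up to the start, RefSeq, GRCm38.p6, the assembly behind mm10). Fos is at chr12:85473640-85473889 on the plus strand and Cyr61 at chr3:145649986-145650235 on the minus strand, each printed 5′ to 3′ along its gene. Capitals mark TGACG or its reverse complement CGTCA, the core of the cAMP response element to which CREB binds, and TATAAA, the TATA box.
Fos: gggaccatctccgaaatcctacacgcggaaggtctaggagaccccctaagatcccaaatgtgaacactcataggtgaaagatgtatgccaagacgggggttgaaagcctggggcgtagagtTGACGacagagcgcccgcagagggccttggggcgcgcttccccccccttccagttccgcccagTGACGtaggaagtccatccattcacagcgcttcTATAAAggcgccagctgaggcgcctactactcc
Cyr61: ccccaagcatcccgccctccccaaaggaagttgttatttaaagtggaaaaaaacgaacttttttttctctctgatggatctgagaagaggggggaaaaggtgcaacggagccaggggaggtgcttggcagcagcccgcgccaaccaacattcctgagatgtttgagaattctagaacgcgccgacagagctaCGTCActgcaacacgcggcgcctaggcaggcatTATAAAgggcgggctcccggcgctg
The Fos promoter holds TGACG 129 and 66 bases before the start and TATAAA 33 bases before it. Cyr61 holds CGTCA 58 bases and TATAAA 25 bases before the start, and no marked motif overlaps another. Searched on both strands over the promoters of the 10492 tested genes that have an entry of this length, TGACG was in 26.8% and TATAAA in 6.4%. Of the 18 genes with an entry on the list of immediate early transcription factors, 11 (61.1%) held TGACG and 2 held TATAAA. The full cAMP response element, TGACGTCA, was in 2.77% of all promoters and in 1 of the 18, that of Btg2. Neither printed promoter holds it. The AP-1 motif TGANTCA (4.48% of all promoters) and the CArG box of SRF (1.15%) had no match in the 18 windows. Only the 250 bases before the start were searched, so elements farther upstream are not covered. Ier2 had no entry, and the promoter of Egr1 is not reported here. These matches describe letters in a window and not bound sites.

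The list of immediate early transcription factors held 25 genes, among them Ier2, Ier5 and Btg2, which are not classical transcription factors. The low-count filter kept 24 of the genes and dropped Egr4. Of the 24, 3 (Egr1, Fos and Ier2) were called lower in pool 1 (12.5%, against 0.0435% of all genes) and 0 higher. Below 0 lay 20 of 24, with a median log2 fold change of −0.10, against 0.00108 for all genes and 49.4% of all genes below 0. In 13 of the 24 both pool 1 libraries lay below both pool 4 libraries (14.7% of all genes did), and in 2 both lay above (20.6% of all genes). At an unadjusted p below 0.05, 9 were lower (3.08% of all genes) and 0 higher. The list was written with earlier results of these data known, among them those for Fos and Egr1, so its share of calls is not independent of them.

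Among the members that were not called, Junb, an AP-1 subunit, was at 47.7 and 45.3 CPM in pool 1 and at 56.1 and 52.8 CPM in pool 4. Its log2 fold change was −0.23 ± 0.05 (SE, adjusted p = 0.228 in edgeR). Jun, another AP-1 subunit, was at 132.5 and 118.7 CPM against 138.9 and 142.5 CPM (−0.17, adjusted p = 0.577 in edgeR). The libraries of the pools did not overlap for Junb or Jun, with pool 1 below. Myc (97.9 and 105.6 against 115.8 and 110.7 CPM) and the antiproliferative gene Btg2 (255.0 and 264.3 against 298.6 and 283.9 CPM) did not overlap either, with log2 fold changes of −0.16 and −0.17 (adjusted p = 0.577 and 0.212 in edgeR).

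Other members of the same families were closer to 0 or less certain. Fosb and Fosl1, paralogs of Fos, had log2 fold changes of −0.18 ± 0.14 and −0.15 ± 0.10 (SE), and Fosl2 was at −0.00 ± 0.03. Egr2 and Egr3, paralogs of Egr1, were at −0.03 ± 0.10 and −0.13 ± 0.24. The orphan nuclear receptor Nr4a1 was at −0.27 ± 0.12, with overlapping libraries, and Nr4a2 and Nr4a3 at −0.03 and −0.00. The 4 members above 0 were Klf2 (0.20), Klf10 (0.15), Klf4 (0.04) and Csrnp1 (0.03). None of these members passed the test, so apart from Egr1, Fos and Ier2 the list is described by its signs and not by calls.

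**Figure D2:**
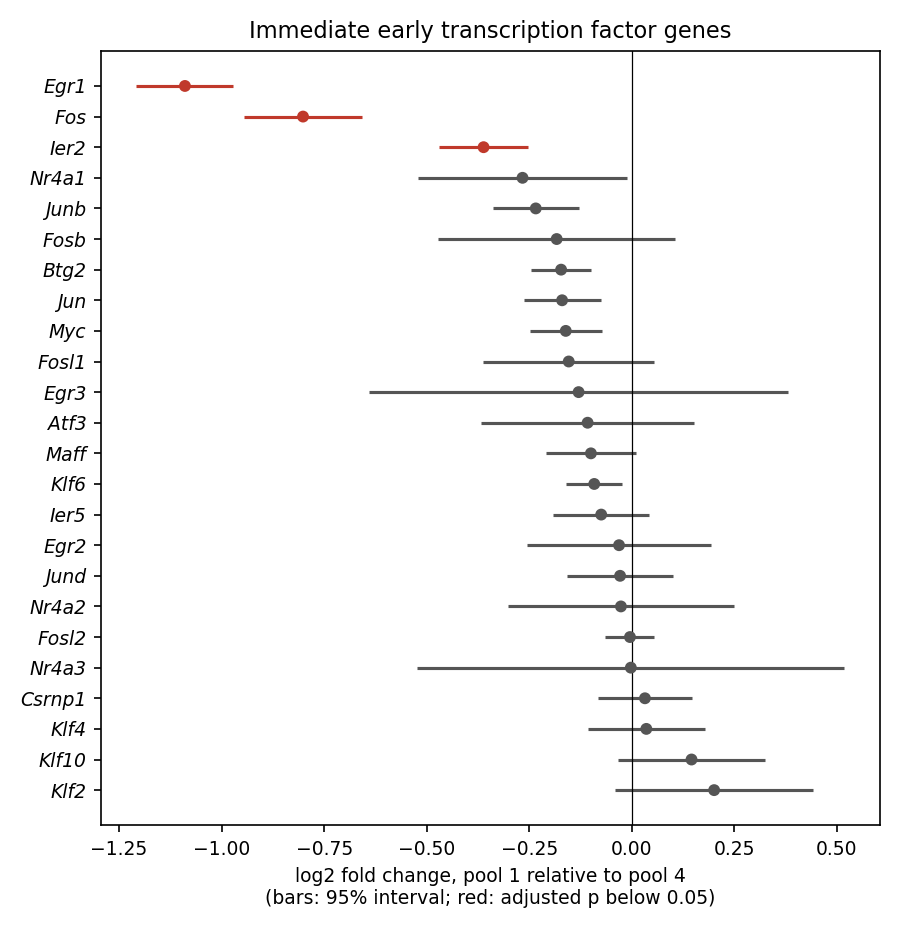
Points are log2 fold changes of pool 1 relative to pool 4 for the 24 tested genes on the list of immediate early transcription factors. Bars are their 95% intervals, with called genes in red. Egr1 and Fos stand left of all other members, whose estimates run from −0.36 for Ier2 to 0.20 for Klf2.

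A second list held other immediate early genes. It too was written with earlier results of these data known, so its share of calls is not independent of them. Of 24 tested, 1 was called lower (Cyr61, 4.17%, against 0.0435% of all genes) and 0 higher, 16 lay below 0, and the median log2 fold change was −0.05. At an unadjusted p below 0.05, 9 were lower (3.08% of all genes) and 0 higher, as in the list of transcription factors. Both pool 1 libraries lay below both pool 4 libraries for 12 of the 24 (14.7% of all genes) and above for 1 (20.6% of all genes). Ptgs2, the prostaglandin synthase induced at ovulation, was at 334.4 and 332.5 CPM in pool 1 and at 362.6 and 365.6 CPM in pool 4. Its log2 fold change was −0.13 ± 0.03 (SE, adjusted p = 0.295 in edgeR). Values of the same order, also not called, were found for Zfp36, which destabilizes AU-rich mRNAs (−0.18), Dusp1, a MAP kinase phosphatase (−0.16), Plk2 (−0.16) and Ier3 (−0.14). Other members went the other way: 8 of the 24 lay above 0 (50.6% of all genes). The lowest member was Arc (−0.228) and the highest Areg (0.262), neither of them called.

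The lists of genes around this response had medians near 0. Of 22 components of the ERK and SRF pathway, among them Srf, Elk1 and Creb1, 0 were called, and the median log2 fold change was 0.02. Of all genes 0.0435% were called, so 0 calls do not set a list of this size apart. Above 0 lay 15 of the 22 (50.6% of all genes). Both pool 1 libraries lay above both pool 4 libraries for 7 (20.6% of all genes) and below for 2 (14.7%). Of 15 ERK feedback genes 0 were called, with a median of −0.01. The largest change among them was in Dusp6, the ERK phosphatase, which was at 275.7 and 260.8 CPM in pool 1 and at 297.0 and 291.6 CPM in pool 4 (log2 −0.14, adjusted p = 0.506 in edgeR). In the Hippo pathway and its YAP targets 1 of 17 genes was called, Cyr61 (5.88%, against 0.0435% of all genes). This list too was chosen with earlier results of these data known. Ctgf, another YAP target, was at 1283 and 1288 CPM against 1353 and 1372 CPM (log2 −0.09, adjusted p = 0.781 in edgeR). Yap1 itself was at 221.6 and 221.9 CPM in pool 1 and at 205.3 and 198.8 CPM in pool 4, a log2 fold change of 0.13 that did not pass (adjusted p = 0.577 in edgeR).

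The other groups place these levels. Egr1 was at 34.2, 38.1 and 38.6 CPM in the 3 scramble libraries, at 72.6 and 90.4 CPM in pool 2 and at 70.2 and 72.0 CPM in pool 3. Pool 1 therefore overlapped with scramble, and pool 4 overlapped with pool 3 and lay just below pool 2. Pools 2 and 3 hold siRNAs 6 and 9 together. Fos was at 26.2 to 28.6 CPM in scramble, at 47.6 and 52.2 CPM in pool 2 and at 33.3 and 31.3 CPM in pool 3. Its pool 1 libraries were the lowest of the 11, scramble came next, pools 3 and 4 overlapped, and pool 2 was highest. Ier2 was at 42.3 to 46.2 CPM in pools 2 and 3, which overlapped with pool 4. In scramble it was at 35.6 and 32.8 CPM in replicates 2 and 3 and at 73.3 CPM in replicate 1. Cyr61 was highest in pool 3, at 763.5 and 733.8 CPM, and at 406.9 to 530.3 CPM in scramble, so that pool 4 lay between pool 3 and pool 1. Its pool 2 libraries, at 575.9 and 540.3 CPM, lay just above those of pool 1.

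Seen after the values were known, Egr1 and Fos followed siRNA 9 across the whole series: each of the 6 libraries with siRNA 9 was above each of the 5 without it. The mean difference was 2.10-fold for Egr1 and 1.59-fold for Fos. Such a complete separation was found for 25 of the 13786 genes with the higher level in the presence of siRNA 9 (0.181%) and for 48 with the lower level (0.348%). Of the genes whose log2 CPM averaged 2 or more, Egr1 and Fos were the only ones of these that also exceeded 1.5-fold, with or without scramble replicate 1, a library that stood far from all others. Cyr61 separated only just, with pool 2 replicate 2 at 540.26 CPM and pool 1 replicate 1 at 540.13 CPM, and its means differed by 1.28-fold. Ier2 did not separate. The same sorting by siRNA 6 separated 28 genes with the higher and 7 with the lower level in its presence, and 0 of them exceeded 1.5-fold at that level of expression. These counts include the 4 libraries of the comparison and carry no test. Of the libraries without siRNA 9, the 3 scramble libraries also lack every Akt1 siRNA. Matches of siRNA 9 or siRNA 6 to other transcripts were not analysed here, because no sequence of the siRNAs was at hand.

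**Figure D3:**
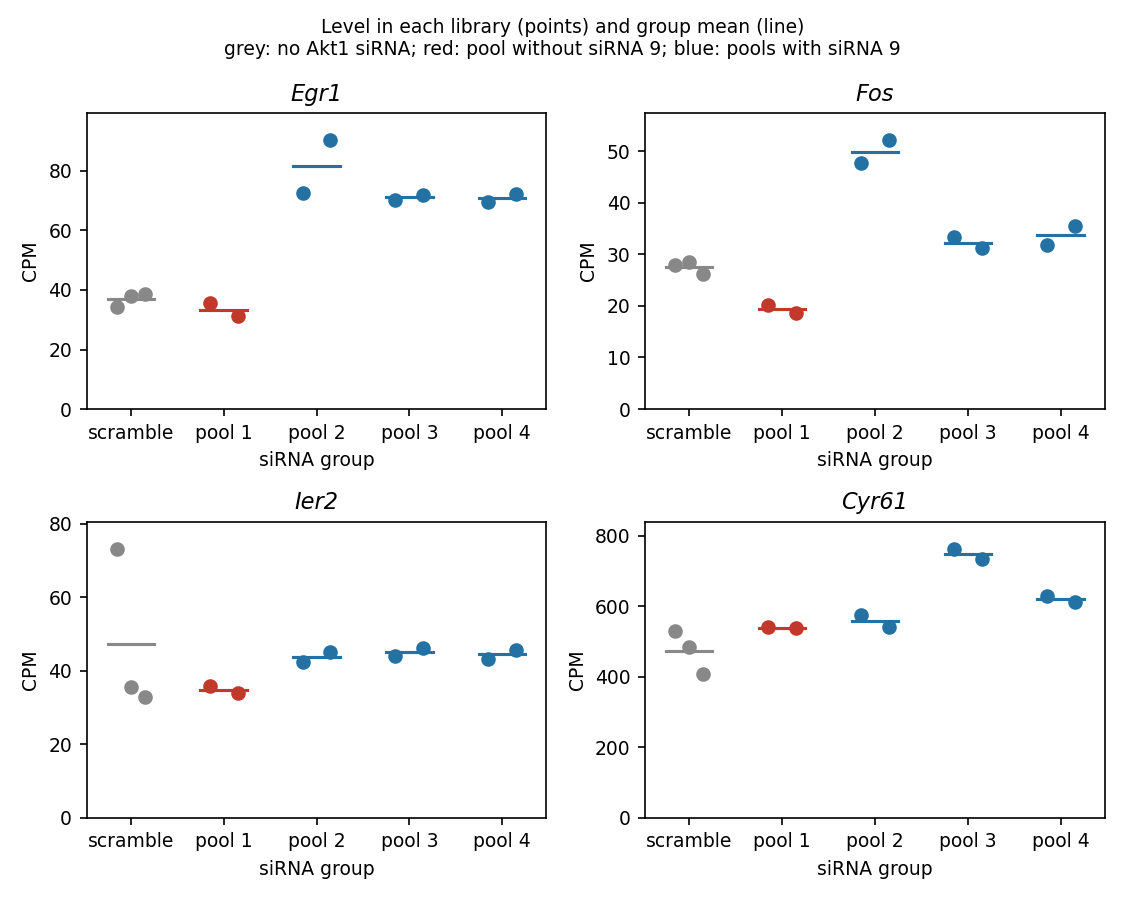
Each point is the level of a gene in CPM (y axes from 0) in 1 library of the 5 siRNA groups (x axes), and each line a group mean, with scramble in grey, pool 1 in red and the pools with siRNA 9 in blue. Egr1 and Fos are higher in all 6 blue libraries than in the other 5, as is Cyr61 by a narrow margin in pool 2, whereas Ier2 departs from that order in scramble replicate 1 (73.3 CPM).

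The other called genes were noncoding. Malat1, an abundant nuclear RNA, was at 1422 and 1076 CPM in pool 1 and at 2030 and 1943 CPM in pool 4. The pools did not overlap, and the log2 fold change was −0.68 ± 0.08 (SE, adjusted p = 0.00374 in edgeR), a 1.60-fold difference. Rn45s, the precursor of ribosomal RNA, was at 2233 and 1208 CPM in pool 1 and at 5518 and 3347 CPM in pool 4 (log2 −1.37 ± 0.22, SE, adjusted p = 0.045 in edgeR), a 2.59-fold difference. Replicates of Rn45s lay far apart within each pool, and the gap between the pools, from 2233 to 3347 CPM, was smaller than the distance between the pool 4 replicates. DESeq2 did not call Malat1 or Rn45s (adjusted p = 1 for each), nor did edgeR with the 4 pools in 1 fit (adjusted p = 0.151 and 0.198). In the other groups Malat1 ranged from 504.4 CPM in scramble replicate 1 to 2998 CPM in scramble replicate 3, and Rn45s from 772.4 CPM in pool 2 to 4430 CPM in scramble replicate 1, so for these RNAs libraries of the same group differed by as much as the pools did. Malat1 lies on chromosome 19, from 5795690 to 5802672 on the minus strand (mm10), where Gm27694 on the same strand and Gm37376 on the opposite strand overlap it.

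A few further genes, most of them noncoding, were looked at after the values of Rn45s were seen. Rmrp, the RNA of a ribonuclease that cuts ribosomal RNA precursors, was at 0.739 and 0.473 CPM against 3.05 and 1.39 CPM (log2 −1.85, adjusted p = 0.212 in edgeR). Rpph1, the RNA of ribonuclease P, was at 1.895 and 1.65 CPM against 3.87 and 2.57 CPM (−0.86, adjusted p = 0.577 in edgeR). The counts of Lars2 were 284.8 and 111.4 CPM in pool 1 and 433.5 and 270.3 CPM in pool 4, and those of Mir6236 61.8 and 19.2 CPM against 100.5 and 60.2 CPM, with overlap. In each of these the order of the 4 libraries put pool 4 replicate 1 highest and pool 1 replicate 2 lowest, as in Rn45s. Neat1, another nuclear RNA, was at 563.7 and 552.6 CPM against 556.6 and 575.9 CPM (−0.03).

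Interferon-stimulated genes, which cells switch on in response to interferon or to foreign RNA, differed more between the pool 4 replicates than between the pools. Of 34 tested, 0 were called, 32 had a log2 fold change above 0 and the median was 0.19 (50.6% of all genes lay above 0). Relative to the mean of the 4 libraries on a log2 scale, the median member was at 0.11 and 0.22 in pool 1 replicates 1 and 2, at 0.27 in pool 4 replicate 1 and at −0.73 in pool 4 replicate 2. Pool 4 replicate 2 was the lowest library for 34 of 34 members and pool 4 replicate 1 the highest for 21. Stat2, a transcription factor of the pathway, was at 68.6 and 67.5 CPM in pool 1 and at 65.9 and 49.6 CPM in pool 4. Isg15, a ubiquitin-like protein, was at 18.8 and 20.6 CPM in pool 1 and at 22.8 and 7.92 CPM in pool 4. For both, pool 4 replicate 2 was the lowest library and the other 3 lay close together. Without pool 4 replicate 2 the median of the list was −0.17, and without pool 4 replicate 1 it was 0.88, so the positive median rests on 1 library.

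Some genes of this response, picked after their values were seen, did not depend on that library for their sign. Both pool 1 libraries lay above both pool 4 libraries for 8 of the 34 genes. This share is near the 20.6% of all genes, so the count does not set the list apart. Ifit3b was at 3.95 and 5.70 CPM in pool 1 and at 2.82 and 1.504 CPM in pool 4 (log2 1.16 ± 0.24, SE, adjusted p = 0.223 in edgeR). Rsad2, the antiviral protein viperin, was at 22.5 and 37.4 CPM against 22.2 and 8.80 CPM (0.95, adjusted p = 0.767 in edgeR). Cxcl10, an interferon-induced chemokine, was at 2.92 and 3.65 CPM against 1.88 and 1.14 CPM (1.12, adjusted p = 0.212 in edgeR). With each library left out in turn, Ifit1 stayed above 0 (0.38 to 1.62), as did Ifit3b (0.76 to 1.67) and Rsad2 (0.41 to 1.76). None of these genes passed the test on the 4 libraries with the low-count filter. Without it Ifit3b, Cxcl10 and Rsad2 did (adjusted p = 0.00572, 0.0112 and 0.0467 in edgeR).

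**Figure D4:**
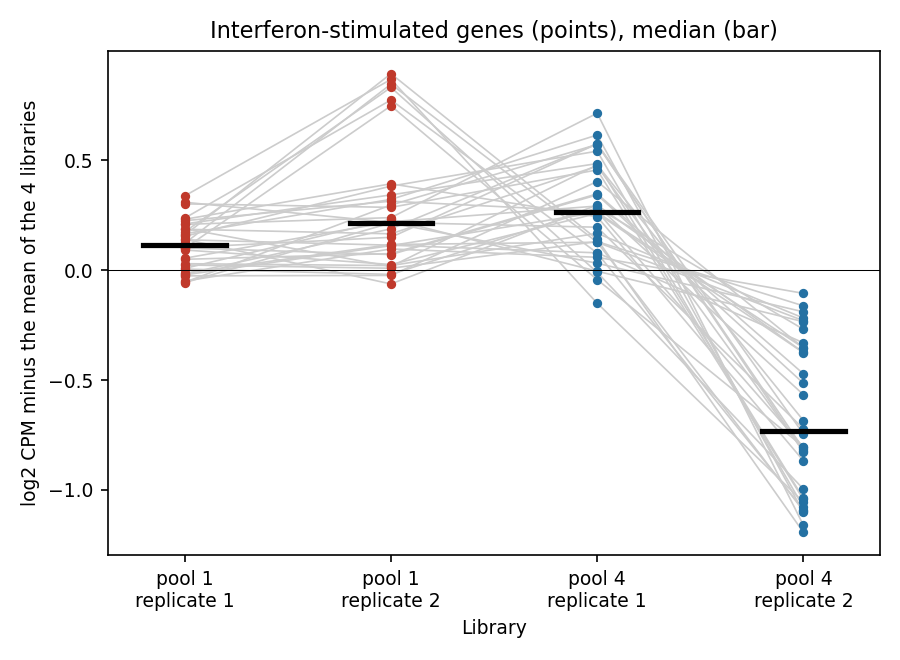
Points are the 34 tested interferon-stimulated genes in each of the 4 libraries (x axis), as log2 CPM minus the mean of the 4 libraries (y axis), grey lines join a gene and black bars are medians, with pool 1 in red and pool 4 in blue. Pool 4 replicate 2 lies lowest for every gene, with a median of −0.73, while pool 4 replicate 1 has the highest median, 0.27.

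Lists of the functions for which granulosa cells are known had medians near 0. Of 17 tested genes of steroid hormone synthesis 0 were called, with a median log2 fold change of 0.06. Of all genes 0.0435% were called, so 0 calls do not set a list of this size apart. Above 0 lay 13 of the 17 (50.6% of all genes), and the highest was Cyp19a1 (0.171). Star, which brings cholesterol into mitochondria, was at 585.7 and 574.0 CPM in pool 1 and at 582.4 and 575.8 CPM in pool 4 (log2 −0.00 ± 0.03, SE). Cyp11a1, which makes pregnenolone from it, was at 2271 and 2192 CPM against 2141 and 2152 CPM (log2 0.05 ± 0.03, SE). Of 23 genes of cholesterol synthesis 0 were called and 20 lay above 0 (50.6% of all genes), with a median of 0.05. The highest was Fdft1, squalene synthase (0.115, adjusted p = 0.792 in edgeR). Of 18 granulosa cell markers 0 were called and 14 lay above 0 (median 0.06). Of 17 genes of the PI3K, AKT and SGK list 0 were called and 8 lay above 0 (median −0.00). Among these was Pdpk1, the kinase that activates AKT.

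Over 39 gene lists, 702 of 753 genes were tested and 4 of them were called, against 6 of all 13786 genes (0.0435%). The calls were in 3 lists, namely both immediate early lists and the Hippo list, which shares Cyr61. The lists were chosen with earlier results of these data known, so the place of the calls is not independent of them. The median log2 fold change lay within ±0.1 in 36 of the lists. Outside lay the immediate early transcription factors (−0.10), the interferon-stimulated genes (0.19) and the oocyte markers (0.29, over 3 tested genes). Of the lists for other cells, summed levels in the 4 libraries were 5363 to 5683 CPM for theca and stroma and 3739 to 3862 CPM for surface epithelium. They were 7.74 to 9.65 CPM for immune cells, 15.8 to 18.4 CPM for endothelium and blood and 3.60 to 5.30 CPM for oocytes. In these lists 0 members were called, which at 0.0435% of all genes does not set them apart.

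**Figure D5:**
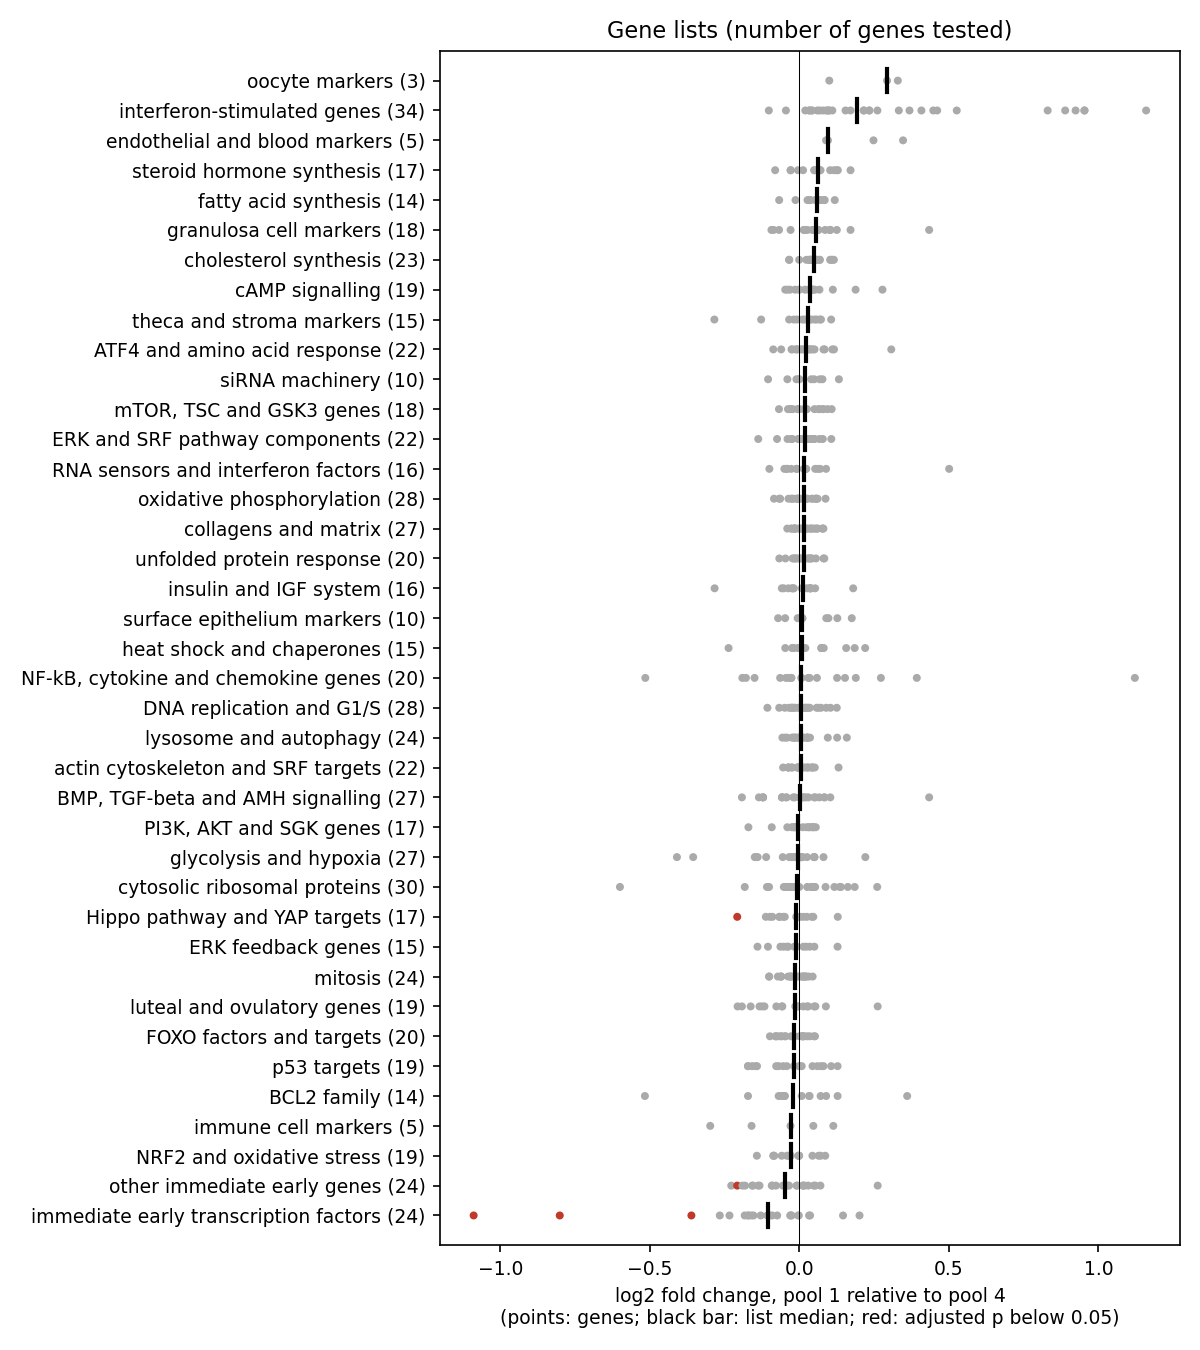
Each row is a gene list with its number of tested genes in parentheses, grey points are log2 fold changes of pool 1 relative to pool 4, red points are called genes and black bars list medians. Medians lie close to 0 in nearly all lists, from −0.10 for immediate early transcription factors to 0.29 for the 3 oocyte markers, and the called genes stand in 3 lists.

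With 6 genes called, the rule for naming genes filled up with the smallest p-values that did not pass, given as values. On the lower side Nudt3, which cleaves diphosphoinositol polyphosphates, was at 120.5 and 118.9 CPM in pool 1 and at 139.4 and 133.5 CPM in pool 4 (log2 −0.19, adjusted p = 0.113 in edgeR). Irf2bpl (−0.19), the ribosomal protein gene Rpl23 (−0.18) and Fbl, the rRNA methyltransferase fibrillarin (−0.63), had adjusted p of 0.144 to 0.223 in edgeR. On the higher side Rbm3, a cold-inducible RNA-binding protein, was at 30.9 and 30.4 CPM in pool 1 and at 22.9 and 25.9 CPM in pool 4 (0.32, adjusted p = 0.212 in edgeR). Mir17hg, the host transcript of a microRNA cluster, was at 6.17 and 6.18 CPM against 4.58 and 4.15 CPM (0.50, adjusted p = 0.577 in edgeR). Cmpk2, a mitochondrial nucleotide kinase induced by interferon, was at 0.83, and Rpl37 (0.26), Hspe1 (0.22), Atp10a (0.16), Rps26 (0.15), Rsrp1 (0.15) and Gstm2 (0.14) were nearer to 0. Without the low-count filter Nudt3, Irf2bpl, Btg2, Fbl and Rmrp passed on the lower side and Rbm3 and Cmpk2 on the higher side (adjusted p = 0.00572 for Rmrp to 0.0334 for Fbl in edgeR).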

How the data were processed

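RNA of 11 samples was read as single 75-base reads from a stranded mRNA kit with 1.3 µg of total RNA, per the labels. The submitters' processing notes list the build mm10 and, with no role or order, the tools featureCounts 1.5.0-p2, TopHat2, cutadapt 1.9.1, FastQC 0.11.5, bcl2fastq 2.15.0 and DESeq2. Settings, and whether the counting used strand, are not stated there. The deposited values are the authors' raw read counts for 24490 gene symbols and 92 ERCC spike-in sequences. The ERCC counts (0.341% to 0.558% of a library's total in the 4 libraries) were left out. Reads shared by paralogs or overlapping genes cannot be separated from the counts.

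Counts of the 2 pool 1 and 2 pool 4 libraries were fitted alone with edgeR 4.0.16 in R 4.3.3 (TMM scaling, filterByExpr, quasi-likelihood F test, two-sided, Benjamini-Hochberg adjustment over 13786 genes, called below 0.05, no minimum fold) and the script was tested on simulated data. Standard errors are the size of the log2 fold change divided by the square root of F. The biological coefficient of variation was 2.86%. The 2 libraries of each pool differed by more than sampling noise (chi-square per degree of freedom 3.42 and 3.46), so none was taken as a duplicate. Named were Akt1, Akt2, Fos and Egr1, the immediate early transcription factors, up to 12 called genes per direction with a mean log2 CPM of 2 or more and no overlap, filled up with the smallest p-values, and up to 3 called genes per list. Some results are not reported here. The rule skips predicted genes, pseudogenes and genes of the mitochondrial genome. The pools compared, the lists and the rule were chosen with earlier results of these data known. Alternatives were other groups in the fit, a replicate block, RLE scaling, 2 other filters, DESeq2 1.42.0, limma-voom (limma 3.58.1) and leaving out each library. Gene positions are from GENCODE M21 (GRCm38, the assembly of mm10).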

Additional observations from a re-analysis of the deposited data

How the results depend on the processing

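The count of called genes was 6, and it was 4 with the 4 pools in 1 fit, 6 with RLE scaling, 5 with CPM above 1 in each library, 4 with DESeq2 and 6 with limma-voom. It fell to 0 with all 5 groups in 1 fit (85 genes at an unadjusted p below 0.05), where Egr1 and Fos had an adjusted p of 0.393 each in edgeR. Without scramble replicate 1, an alternative chosen after seeing the data, that fit called 3 genes, Egr1, Fos and Ier2. Without a low-count filter 16 genes were called, 5 higher and 11 lower in pool 1. With a replicate block 9 genes were called, adding Lars2, Mir6236 and Rmrp, although the numbers did not pair the libraries (the replicate differences of the pools had a correlation of −0.05 across 11053 genes). Leaving out 1 library at a time gave 35 called genes (pool 1 replicate 2 out) to 82 (pool 1 replicate 1 out), with 76 and 74 for the pool 4 replicates. The lone library of a pool is there assumed to vary like the other pool, and each gene's spread was set to the trend over all genes. In each of these 4 fits the 6 genes were called, and 11 genes were common to all 4, of 173 called in any.

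Egr1 was called in 12 of 13 alternatives (log2 −1.19 to −1.0), as were Fos (−0.87 to −0.73) and Ier2 (−0.41 to −0.32). Cyr61 was called in 11 (−0.24 to −0.18), Malat1 in 9 (−0.90 to −0.49) and Rn45s in 8 (−1.89 to −0.96). Malat1 and Rn45s lost their calls in DESeq2 and in the fits with other groups, and Rn45s also with CPM above 1 in each library. The counts of calls include the fits that leave out a library. There each gene's spread was set to the trend over all genes, so its own replicate spread did not count. Signs turned in several genes close to 0. Nr4a3 was at 0.0007884 with 5 groups, 0.0007875 with DESeq2, 0.006929 with the block, 0.00168 without a filter and 0.01366 with limma-voom. With each library left out in turn, 9 of 47 named genes with a fit took both signs: Akt1 (−0.02717 to 0.1417), Nr4a3 (−0.2098 to 0.2541), Nr4a2 (−0.07781 to 0.0205), Jund (−0.1742 to 0.09856), Egr2 (−0.09292 to 0.03399), Egr3 (−0.4648 to 0.129), Klf4 (−0.01701 to 0.08312), Fosl2 (−0.01194 to 0.0004383) and Csrnp1 (−0.03408 to 0.1017). The cause of these changes was not tested.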
